A study of Mus musculus with 10 samples.

Results

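The long-term blood stem cell genes are 31 mouse genes named for their known roles in, or as markers of, the blood stem cells that sustain the marrow over a lifetime. They were taken as a list of symbols and matched to probes through the RefSeq accessions on the array. All 31 matched, on 39 probes, among 20972 named genes and 48997 features in all. They comprise 10 regulators of transcription and growth, 9 surface molecules, 3 genes of the cytoplasm used as stem cell reporters or markers, and 9 genes shared with blood vessels and platelets.

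Long-term stem cells are rare, divide seldom, and give rise to multipotent progenitors that divide more often and lose the capacity for lasting engraftment. Transcription factors such as Mecom, Hlf, Meis1, Gata2 and Prdm16 maintain this state, and surface molecules such as EPCR, CD150 and ESAM are used to sort it. Ezh2, the methyltransferase of Polycomb repressive complex 2, places repressive methyl marks on lysine 27 of histone H3, and its loss in blood cells is known in myelodysplastic and myeloproliferative disease.

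RNA came from donor (CD45.2) LSK cells of mouse bone marrow, a gate that holds stem and progenitor cells by Sca-1 and c-Kit and the absence of lineage markers, in C57BL/6 mice that had received a transplant and tamoxifen. KO cells carried Cre-Ert;Ezh2fl/fl, so that tamoxifen deletes Ezh2, and WT cells carried Cre-Ert alone. The 8 KO arrays comprised 1 at 3 months and 7 at 9-12 months after transplantation. Of these 7, 3 came from mice with an overlap of myelodysplastic syndrome and myeloproliferative neoplasm (MDS/MPN), 2 from mice with myelodysplastic syndrome (MDS), 1 from a mouse whose disease was not determined and 1 from a mixture of diseases. WT cells were measured on 1 array at 3 months and 1 at 9-12 months, and these and the KO array at 3 months are labelled as without disease. MDS/MPN replicate 1 carries the further label TC and replicate 3 the label CMMoL. All groups thus shared the transplant, the Cre and tamoxifen. The promoter that drives the Cre, and whether the WT, 3-month and mixed arrays each hold RNA of several mice, are not stated by the sources used here, although the series text gives 3 for the 3-month mice. Replicates are separate arrays, and p-values cover the spread between them.

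The time labels of 4 arrays conflict within the deposit. By the labels of the scanner files, the KO and WT arrays of 3 months were on slide 1, and the remaining 8 arrays were on slide 2. The columns for mixed KO and WT at 9-12 months in the value table match the slide 1 scans, and its columns for 3 months match slide 2 scans, with genotypes unaffected. Times below follow the scanner files, and each statement about a time rests on them. The comparison of all KO with both WT arrays needs no time label. Arrays of MDS/MPN and undetermined mice filled line 2 of slide 2 and those of MDS, mixed and WT filled line 1, so line and disease cannot be told apart. On the arrays, 32.5% to 47.5% of 55681 probes were well above background and 0 were saturated. Array brightness, taken as the 75th percentile, ran between 78.7 and 301.7 intensity units, with MDS/MPN replicate 2 highest in both measures. Ezh2 itself read 2.13 to 3.35 on the 8 KO arrays, against 2.63 and 2.13 on the WT arrays at 9-12 and 3 months. KO and WT differed by 0.13 ± 0.38 (SE, limma adjusted p = 0.996). The sources used here do not place its probe relative to the deleted exons, so this does not check the deletion.

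All levels are log2 signal over the 75th percentile of the array, so 0 is the level of that percentile and 1 unit is 2-fold. A level compares arrays for 1 probe, not probes with each other. Of the 31 genes, 18 were well above background on all 10 arrays, 8 on 5 to 9 and 5 on fewer. The WT array at 3 months gave the highest level for 17 of the 26 genes well above background on at least 5 arrays, and the undetermined KO array the lowest for 11 of them. Of these 26, 21 were higher on the WT array at 3 months than on the WT array at 9-12 months. Because these are bulk samples, fewer cells of a type and less RNA per cell cannot be told apart.

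**Figure D1:**
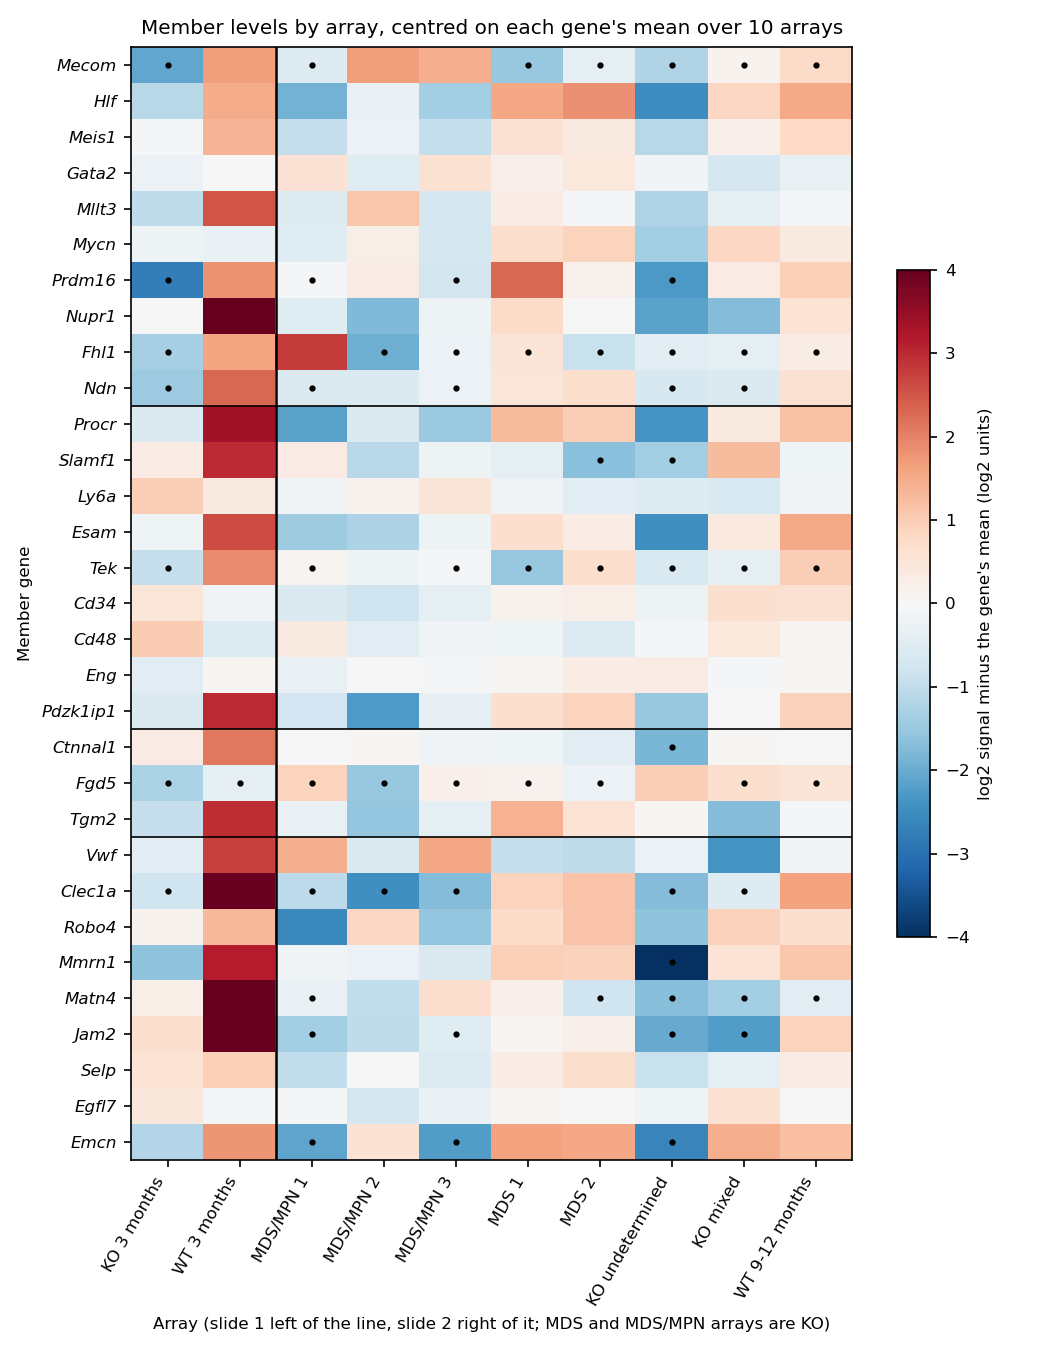
Each row is 1 of the 31 genes and each column 1 of the 10 arrays, with slide 1 left of the vertical line and slide 2 right of it. Colour gives log2 signal minus the gene's mean over the arrays (the colour scale ends at 4 in either direction), and dots mark values not well above background. The WT array at 3 months is the reddest column, with the highest level for 17 of the 26 genes well above background on at least 5 arrays.

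At 3 months, where 1 KO array stood against 1 WT array, most stem cell genes were lower in KO cells. Of 30 genes well above background on at least 1 of the 2 arrays, 25 were below WT, and 22 were at least 2-fold lower, where 12.2% of all 22436 features were. Only Cd48 was at least 2-fold higher, where 12.9% of all features were. The median difference of the 30 genes was -2.86, against 0.23 over all features. Mecom, Prdm16, Fhl1, Ndn, Tek and Clec1a, all among the 22, were counted through the WT array alone. Their KO signals were not well above background. Among the 18 genes well above background on all 10 arrays, 13 were below WT (median -1.29), against 29.1% of such features (median 0.31).

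The mixed KO array, set against the WT array of 9-12 months, gave smaller values in the same sense for most genes. Of 26 genes counted, 18 were below WT, with a median of -0.57 against 0.01 over all features. Nupr1, Ndn, Esam, Tgm2, Vwf, Clec1a and Jam2 were at least 2-fold lower, 7 genes in all, where 4.35% of 19581 features were. Of these, Ndn, Clec1a and Jam2 were counted through the WT array alone, and their KO signals were not well above background. Slamf1 alone was at least 2-fold higher, where 4.51% of features were. With only the 18 genes well above background on all arrays, 13 were below WT (median -0.53), against 46.6% of such features (median 0.02). These pairs have no replicates and no test.

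**Figure D2:**
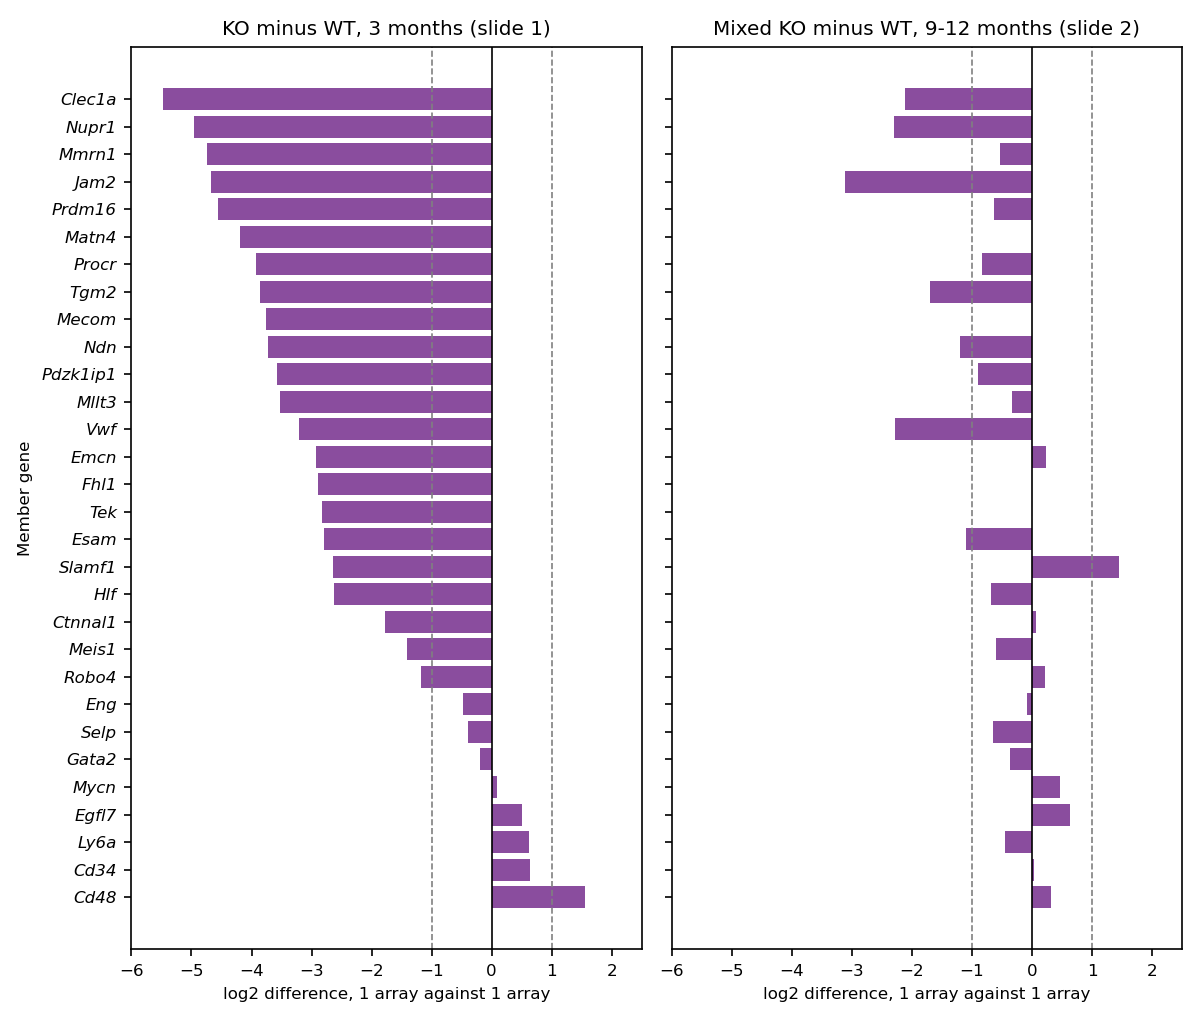
Bars give the KO minus WT log2 difference of each of the 30 genes counted at 3 months (left) and of the same genes in the mixed KO pair at 9-12 months (right, with no bar where neither array was well above background). Dashed lines mark a 2-fold difference. On the left 22 genes pass the lower line, and on the right 7 do.

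Promoters are shown for the genes at the ends of the KO against WT ranking. They are the 2 lowest and the 2 highest with an entry in the RefSeq promoter table of GRCm38.p6. None of them passed limma's test (adjusted p = 0.683 for Nupr1, 0.904 for Mmrn1, 0.967 for Cd48 and 0.995 for Gata2). The promoters thus show the ends of a ranking, not genes shown to be raised or lowered in KO cells. Nupr1 (-2.66 ± 0.92, SE) and Mmrn1 (-2.65 ± 1.23) were lowest, and Cd48 (0.45 ± 0.43) and Gata2 (0.17 ± 0.42) highest, all on 8 KO against 2 WT arrays. Each run covers 250 bases before the start to 50 after it on the strand of the gene, and the first listed start was taken for Gata2, which has 2.
Nupr1 (chr7:126625421-126625720, minus strand): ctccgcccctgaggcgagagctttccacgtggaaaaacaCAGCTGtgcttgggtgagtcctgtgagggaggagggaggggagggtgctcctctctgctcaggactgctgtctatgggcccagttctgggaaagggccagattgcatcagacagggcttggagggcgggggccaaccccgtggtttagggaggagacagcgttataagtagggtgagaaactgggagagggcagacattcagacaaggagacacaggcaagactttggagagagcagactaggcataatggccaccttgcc
Mmrn1 (chr6:60944067-60944366, plus strand): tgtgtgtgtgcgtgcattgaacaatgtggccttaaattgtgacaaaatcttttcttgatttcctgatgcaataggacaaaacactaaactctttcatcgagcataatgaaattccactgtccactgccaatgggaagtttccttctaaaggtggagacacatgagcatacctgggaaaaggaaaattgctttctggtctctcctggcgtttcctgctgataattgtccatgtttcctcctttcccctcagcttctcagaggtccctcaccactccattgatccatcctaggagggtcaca
Cd48 (chr1:171681742-171682041, plus strand): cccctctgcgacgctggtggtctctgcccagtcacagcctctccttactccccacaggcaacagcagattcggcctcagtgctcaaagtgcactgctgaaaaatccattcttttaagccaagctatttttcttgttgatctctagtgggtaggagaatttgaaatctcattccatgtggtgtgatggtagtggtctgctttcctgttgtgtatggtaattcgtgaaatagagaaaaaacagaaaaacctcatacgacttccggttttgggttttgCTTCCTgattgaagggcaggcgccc
Gata2 (chr6:88193641-88193940, plus strand): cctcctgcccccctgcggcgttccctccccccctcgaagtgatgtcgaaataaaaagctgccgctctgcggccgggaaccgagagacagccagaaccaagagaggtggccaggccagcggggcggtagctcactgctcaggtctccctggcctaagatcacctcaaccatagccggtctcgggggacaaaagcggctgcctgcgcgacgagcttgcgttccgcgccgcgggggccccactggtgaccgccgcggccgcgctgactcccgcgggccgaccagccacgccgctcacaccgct
Capitals mark the motifs searched on both strands: AGATAA of GATA factors, AGGAAG of ETS factors and the E-box CAGNTG, none of which overlap another here. Nupr1 holds an E-box match and Cd48 an ETS match, and the Mmrn1 and Gata2 windows hold no match. E-box matches stand in 51.4% of the 32851 promoters of this length in the table, ETS matches in 35.4% and GATA matches in 11.2%. Of the 25 genes with an entry, 13 had an E-box match, 9 an ETS match and 1, Tek, a GATA match. The dinucleotide CG, the target of DNA methylation, occurred 32 times in the Gata2 window, 7 times in Cd48, 6 times in Nupr1 and 3 times in Mmrn1, and the median was 7 both over the 25 genes and over all promoters. Esam, Ly6a, Vwf, Tgm2, Clec1a and Jam2 had no entry.

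The fitted KO minus WT difference of the transcription regulators lay below 0 in all but 1 of their tested members, Gata2. That of Mycn was near 0, at -0.19 ± 0.62 (SE). Set against both WT arrays, 9 of 10 lay below 0 with a median of -1.63, where 46.7% of all features lay below 0. Mecom, Fhl1 and Ndn entered through the WT arrays alone, and none of the 10 passed the test over all features. Among those well above background on all 10 arrays, the lowest were Nupr1 at -2.66 ± 0.92 and Hlf at -2.09 ± 1.14 (SE, limma adjusted p = 0.683 and 0.954, 8 KO and 2 WT arrays).

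Hlf (chromosome 11, 90336535 to 90390917, GRCm38.p6 here and below) encodes a basic leucine zipper factor of the PAR family that is expressed in stem cells and protects them from exhaustion. Hlf read 1.35 on the KO array and 3.97 on the WT array at 3 months. On slide 2, Hlf read 0.57, 2.17 and 1.1 in MDS/MPN, 4.01 and 4.29 in MDS, -0.01 in the undetermined and 3.31 in the mixed KO sample, against 3.99 in WT. Both MDS arrays lay above WT, replicate 1 only just, whereas the MDS/MPN, undetermined and mixed arrays lay below it. The 3 MDS/MPN values were all under the 2 MDS values. The MDS/MPN minus MDS difference was -2.87 ± 0.54 (SE, 95% interval -4.21 to -1.53, limma adjusted p = 0.975). Meis1 (chromosome 11, 18880428 to 19019651) encodes a homeobox factor that binds DNA together with Hox proteins. Meis1 read 4.21 on the KO array and 5.62 on the WT array at 3 months. On slide 2, Meis1 read 3.34, 4.03 and 3.33 in MDS/MPN, 4.86 and 4.63 in MDS, 3.15 in the undetermined and 4.46 in the mixed KO sample, against 5.07 in WT. Every KO array was below both WT arrays. Over all arrays KO lay -1.21 ± 0.52 from WT (SE, limma adjusted p = 0.862), and MDS/MPN lay -1.18 ± 0.38 from MDS with no overlap.

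Nupr1 (chromosome 7, 126623246 to 126625470) encodes a small stress-induced chromatin protein. Nupr1 read 1.36 on the KO array and 6.31 on the WT array at 3 months. On slide 2, Nupr1 read 0.87, -0.42 and 1.14 in MDS/MPN, 2.12 and 1.37 in MDS, -0.79 in the undetermined and -0.40 in the mixed KO sample, against 1.90 in WT. The WT array at 3 months stood far above the other 9 arrays, and MDS replicate 1 was the only KO array of slide 2 above its WT array. Mllt3 (chromosome 4, 87769925 to 88033407) encodes AF9, a reader of acetylated histones that supports stem cell maintenance. Mllt3 read -1.30 on the KO array and 2.22 on the WT array at 3 months. On slide 2, Mllt3 read -0.81, 0.84 and -0.95 in MDS/MPN, 0.02 and -0.37 in MDS, -1.50 in the undetermined and -0.66 in the mixed KO sample, against -0.32 in WT. Here too the WT array at 3 months was alone at the top, and KO arrays lay on both sides of the WT array at 9-12 months. The KO minus WT difference of Mllt3 was -1.39 ± 0.74 (SE, limma adjusted p = 0.954). Over 6 KO arrays against WT at 9-12 months it was -0.14 ± 0.76.

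Gata2 (chromosome 6, 88193891 to 88207032) encodes a zinc finger factor required for stem cell survival. Gata2 read 3.27 on the KO array and 3.46 on the WT array at 3 months. On slide 2, Gata2 read 4.06, 3.01 and 4.10 in MDS/MPN, 3.68 and 3.92 in MDS, 3.39 in the undetermined and 2.82 in the mixed KO sample, against 3.19 in WT. The KO values lay on both sides of both WT arrays, and the KO minus WT difference was 0.17 ± 0.42 (95% interval -0.75 to 1.09, limma adjusted p = 0.995). Mycn (chromosome 12, 12936093 to 12941836) encodes a MYC family factor that drives growth. Mycn read 1.90 on the KO array and 1.82 on the WT array at 3 months. On slide 2, Mycn read 1.60, 2.32 and 1.38 in MDS/MPN, 2.80 and 2.97 in MDS, 0.73 in the undetermined and 2.93 in the mixed KO sample, against 2.46 in WT. The mixed and both MDS arrays were above WT at 9-12 months, and the MDS/MPN and undetermined arrays below it. MDS/MPN lay -1.12 ± 0.41 from MDS (SE, limma adjusted p = 0.991).

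Prdm16 (chromosome 4, 154316122 to 154637360), a zinc finger regulator needed to keep stem cells, was well above background on 4 of 8 KO and both WT arrays. Prdm16 read -4.79 on the KO array and -0.23 on the WT array at 3 months. On slide 2, Prdm16 read -2.09, -1.70 and -2.76 in MDS/MPN, 0.28 and -1.83 in MDS, -4.30 in the undetermined and -1.69 in the mixed KO sample, against -1.05 in WT. MDS replicate 1 was highest and the KO array at 3 months lowest, at least 7.64-fold below its WT array, a bound taken against the dimmest spot called above background on that array. Ndn (chromosome 7, 62348277 to 62349928), an imprinted gene whose product necdin restrains division, was well above background on 3 of 8 KO and both WT arrays. Ndn read -3.42 on the KO array and 0.31 on the WT array at 3 months. On slide 2, Ndn read -2.57, -2.56 and -2.21 in MDS/MPN, -1.49 and -1.28 in MDS, -2.63 in the undetermined and -2.57 in the mixed KO sample, against -1.37 in WT. All KO arrays but MDS replicate 2 were below both WT arrays, and the KO array at 3 months was at least 11.1-fold below WT. The KO minus WT difference of Ndn was -1.87 ± 0.62 (SE, unadjusted p = 0.0118, limma adjusted p = 0.663). Ndn entered this test through the WT arrays alone, and dim KO signals leave the size of its difference uncertain.

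Mecom (chromosome 3, 29951296 to 30509759) and Fhl1 (chromosome X, 56731209 to 56793346) were near background. Mecom encodes the zinc finger factor Evi1, a central regulator of stem cell renewal, and Fhl1 a LIM domain protein. Mecom was well above background on 3 arrays, MDS/MPN replicates 2 and 3 and WT at 3 months, and ranged from -5.26 to -1.50. At 3 months its KO array was at least 3.17-fold below WT. In MDS/MPN it was at least 1.24-fold higher than in MDS, where it was well above background on 0 of 2 arrays (limma adjusted p = 0.991). The second Mecom probe, well above background on 2 arrays, gave 0.22 for MDS/MPN minus MDS, where the probe used gave 1.83. On the second probe MDS/MPN replicate 3 read -4.29, below both MDS arrays (-3.73 and -3.83). Fhl1 was well above background on MDS/MPN replicate 1 and the WT array at 3 months only, ranged from -5.83 to -1.11, and was at least 1.79-fold below WT in the KO array at 3 months.

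**Figure D3:**
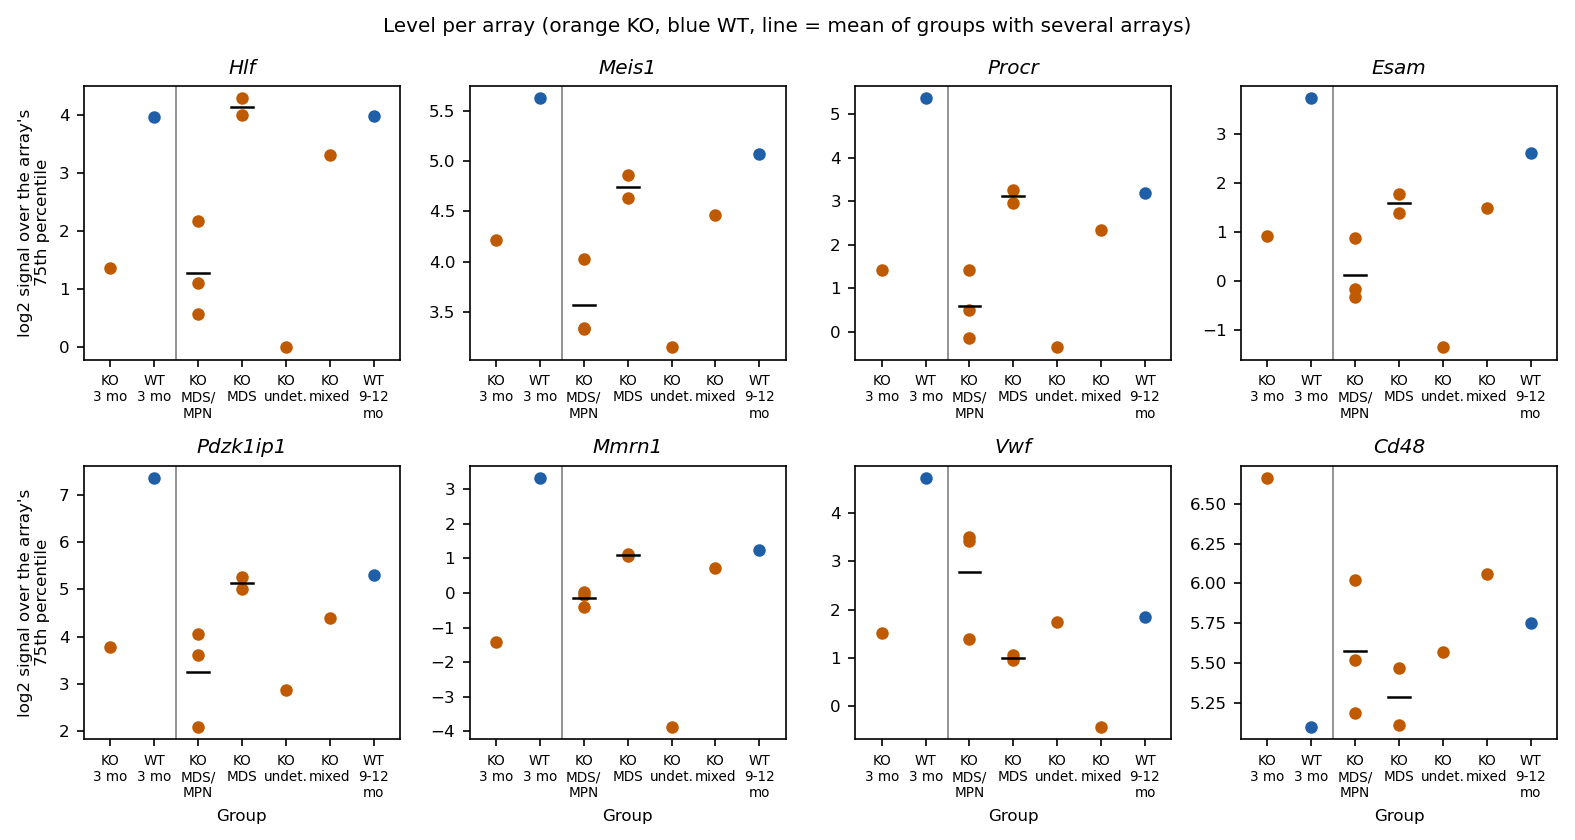
Each point is 1 array, plotted by its log2 level relative to the 75th percentile signal (vertical axis), KO in orange and WT in blue, and slide 1 left of the grey line. Horizontal lines are means of the MDS/MPN (3 arrays) and MDS (2 arrays) groups. Hlf, Procr, Esam and Pdzk1ip1 are lower in MDS/MPN than in MDS with no overlap, Vwf is higher, and Cd48 is highest in the KO array at 3 months.

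Of the 9 surface molecules, 7 lay below 0 in all KO against both WT, with a median of -1.14, and none passed the test. Of the 7, Tek entered through the WT arrays alone. Esam and Pdzk1ip1 read lower on every KO array than on both WT arrays. Cd34, Eng, Ly6a and Cd48 differed least, by -0.24 ± 0.46, -0.18 ± 0.29, 0.21 ± 0.37 and 0.45 ± 0.43 (SE).

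Procr (chromosome 2, 155751125 to 155755478) encodes EPCR, the protein C receptor and a marker of the most primitive stem cells. Procr read 1.43 on the KO array and 5.36 on the WT array at 3 months. On slide 2, Procr read -0.15, 1.41 and 0.50 in MDS/MPN, 3.25 and 2.97 in MDS, -0.35 in the undetermined and 2.35 in the mixed KO sample, against 3.18 in WT. Both MDS arrays were close to WT, with 1 on either side, and the other KO arrays were below both WT arrays. The KO minus WT difference was -2.54 ± 1.03 (SE, 95% interval -4.83 to -0.26, limma adjusted p = 0.83). MDS/MPN lay -2.53 ± 0.53 from MDS (limma adjusted p = 0.991), with no overlap. Esam (chromosome 9, 37528089 to 37538319) encodes an adhesion molecule of endothelium and stem cells. Esam read 0.93 on the KO array and 3.72 on the WT array at 3 months. On slide 2, Esam read -0.32, -0.15 and 0.88 in MDS/MPN, 1.78 and 1.39 in MDS, -1.34 in the undetermined and 1.49 in the mixed KO sample, against 2.60 in WT. All 8 KO arrays were below both WT arrays, MDS arrays included. Its difference from WT was -2.33 ± 0.79 (SE, unadjusted p = 0.0138, limma adjusted p = 0.669).

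Pdzk1ip1 (chromosome 4, 115088708 to 115093894) encodes the small membrane protein MAP17. Pdzk1ip1 read 3.78 on the KO array and 7.35 on the WT array at 3 months. On slide 2, Pdzk1ip1 read 3.61, 2.09 and 4.05 in MDS/MPN, 5.0 and 5.27 in MDS, 2.87 in the undetermined and 4.39 in the mixed KO sample, against 5.30 in WT. All KO arrays were below both WT arrays, with MDS replicate 2 closest to the WT array of 9-12 months. The KO minus WT difference was -2.19 ± 0.84 (SE, limma adjusted p = 0.775), and its second probe gave values of the same sign in each comparison. Slamf1 (chromosome 1, 171767131 to 171801184) encodes CD150, the SLAM receptor that defines long-term stem cells in the mouse, and was well above background on 6 of 8 KO and both WT arrays. Slamf1 read -0.95 on the KO array and 1.71 on the WT array at 3 months. On slide 2, Slamf1 read -0.95, -2.40 and -1.48 in MDS/MPN, -1.66 and -2.96 in MDS, -2.67 in the undetermined and 0.00 in the mixed KO sample, against -1.45 in WT. The mixed KO array was above WT at 9-12 months and the KO array at 3 months below its WT array. Slamf1 differed by -1.14 ± 0.79 between KO and WT (SE, limma adjusted p = 0.967).

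Tek (chromosome 4, 94739086 to 94874976) encodes the angiopoietin receptor Tie2 and was well above background on 2 arrays only, MDS/MPN replicate 2 and WT at 3 months. It ranged from -4.88 to -1.48, and the KO array at 3 months was at least 3.21-fold below WT. Eng (chromosome 2, 32646595 to 32682669) encodes endoglin, a co-receptor for TGF-beta. Eng read 2.09 on the KO array and 2.57 on the WT array at 3 months. On slide 2, Eng read 2.20, 2.48 and 2.43 in MDS/MPN, 2.60 and 2.80 in MDS, 2.84 in the undetermined and 2.47 in the mixed KO sample, against 2.55 in WT. It was the steadiest of the genes, with an SD of 0.24 over the 6 KO arrays of single mice, and differed by -0.18 ± 0.29 between KO and WT (SE, 95% interval -0.82 to 0.47).

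Cd34 and Cd48 mark progenitors more than long-term stem cells in adult mice. Cd34 (chromosome 1, 194938821 to 194961292) encodes a sialomucin of early blood cells. Cd34 read 8.45 on the KO array and 7.81 on the WT array at 3 months. On slide 2, Cd34 read 7.37, 7.15 and 7.57 in MDS/MPN, 8.10 and 8.22 in MDS, 7.75 in the undetermined and 8.60 in the mixed KO sample, against 8.56 in WT. At 3 months the KO array was higher, while all 6 single mice at 9-12 months were below WT (-0.87 ± 0.49, SE, limma adjusted p = 1). Cd48 (chromosome 1, 171681245 to 171705258) encodes a SLAM family ligand absent from most long-term stem cells. Cd48 read 6.66 on the KO array and 5.10 on the WT array at 3 months. On slide 2, Cd48 read 6.02, 5.19 and 5.52 in MDS/MPN, 5.47 and 5.11 in MDS, 5.57 in the undetermined and 6.06 in the mixed KO sample, against 5.75 in WT. The KO array at 3 months was highest and its WT array lowest, a 2.93-fold difference, and on slide 2 the KO arrays lay on both sides of WT. The KO minus WT difference of Cd48 was 0.45 ± 0.43 (SE, limma adjusted p = 0.967). Without the KO or the WT array of slide 1 its sign turned.

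Ly6a (chromosome 15, 74994877 to 74998031) encodes Sca-1, on which the cells were sorted, so its level is no finding. Ly6a read 5.68 on the KO array and 5.05 on the WT array at 3 months. On slide 2, Ly6a read 4.56, 4.85 and 5.20 in MDS/MPN, 4.57 and 4.25 in MDS, 4.18 in the undetermined and 4.10 in the mixed KO sample, against 4.55 in WT. Kit, the other positive gate marker, read 4.11 on the KO and 5.16 on the WT array at 3 months. On slide 2, Kit read 3.90, 4.11 and 3.86 in MDS/MPN, 5.23 and 5.12 in MDS, 4.09 in the undetermined and 4.74 in the mixed KO sample, against 5.06 in WT. Kit RNA thus lay lower in the same KO arrays that had low Hlf and Procr, and its part in those values was not tested.

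Among the 3 cytoplasmic genes, Tgm2 and Ctnnal1 read lower in KO at 3 months and lay on both sides of WT at 9-12 months. Tgm2 (chromosome 2, 158116405 to 158146392) encodes transglutaminase 2, which crosslinks proteins. Tgm2 read 1.80 on the KO array and 5.66 on the WT array at 3 months. On slide 2, Tgm2 read 2.41, 1.17 and 2.32 in MDS/MPN, 4.12 and 3.27 in MDS, 2.76 in the undetermined and 0.98 in the mixed KO sample, against 2.68 in WT. The MDS arrays were above WT and the MDS/MPN arrays below it, -1.73 ± 0.53 apart (SE, limma adjusted p = 0.991). Ctnnal1 (chromosome 4, 56810935 to 56865375) encodes alpha-catulin, a catenin relative whose reporter mice mark stem cells. Ctnnal1 read 0.02 on the KO array and 1.80 on the WT array at 3 months. On slide 2, Ctnnal1 read -0.33, -0.23 and -0.45 in MDS/MPN, -0.49 and -0.76 in MDS, -2.14 in the undetermined and -0.26 in the mixed KO sample, against -0.33 in WT. The undetermined array stood apart at the bottom and was not well above background there. Fgd5 (chromosome 6, 91978827 to 92076005), an exchange factor for Cdc42 whose reporter also marks stem cells, was well above background on the undetermined array only, ranged from -4.17 to -1.67 and entered no test.

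The genes shared with vessels and platelets held members far below WT and members close to WT. In all KO against both WT, 8 of 9 lay below 0 with a median of -1.65, and none passed the test. Mmrn1 and Jam2 were lower on all 8 KO arrays than on both WT arrays, with 7 and 4 of the 8 KO values well above background, while Egfl7 and Selp differed by 0.16 ± 0.36 and -0.50 ± 0.47.

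Clec1a (chromosome 6, 129426684 to 129452000), a C-type lectin receptor, was well above background on 2 of 8 KO arrays, those of MDS, and on both WT arrays. Clec1a ranged from -5.22 to 1.91, with the MDS arrays at -1.86 and -1.63, against -1.16 in WT at 9-12 months and 1.91 in WT at 3 months. The other 6 KO arrays were not well above background. It was at least 33.7-fold below WT at 3 months. It entered the test of all KO against both WT through the WT arrays alone, and the size of its difference there is not measured (limma adjusted p = 0.61).

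Mmrn1 (chromosome 6, 60944317 to 60989378) encodes multimerin 1, a carrier of factor V in platelets and endothelium. Mmrn1 read -1.43 on the KO array and 3.31 on the WT array at 3 months. On slide 2, Mmrn1 read 0.02, -0.06 and -0.42 in MDS/MPN, 1.11 and 1.08 in MDS, -3.87 in the undetermined and 0.71 in the mixed KO sample, against 1.24 in WT. Every KO array was below both WT arrays, and the undetermined array was far below the rest and not well above background. Mmrn1 lay -2.65 ± 1.23 from WT over all arrays (SE, limma adjusted p = 0.904). Jam2 (chromosome 16, 84774123 to 84826380) encodes a junctional adhesion molecule and was well above background on 4 of 8 KO and both WT arrays. Jam2 read -1.69 on the KO array and 2.99 on the WT array at 3 months. On slide 2, Jam2 read -3.72, -3.35 and -2.84 in MDS/MPN, -2.28 and -2.15 in MDS, -4.37 in the undetermined and -4.58 in the mixed KO sample, against -1.46 in WT. All KO arrays were below both WT arrays. Its difference of -2.89 ± 0.78 (SE) had an unadjusted p of 0.00388 and limma adjusted p = 0.606. The second Jam2 probe was well above background on 1 array and gave -0.15 for single mice against WT at 9-12 months, where the probe used gave -1.66.

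Matn4 (chromosome 2, 164389393 to 164405160), an extracellular matrix protein that limits stem cell expansion, was well above background on 5 arrays. Matn4 read -1.97 on the KO array and 2.23 on the WT array at 3 months. On slide 2, Matn4 read -2.54, -3.22 and -1.58 in MDS/MPN, -2.04 and -3.04 in MDS, -3.95 in the undetermined and -3.61 in the mixed KO sample, against -2.66 in WT. The WT array at 3 months was alone above 0, and at 9-12 months KO lay on both sides of a WT value that was itself not well above background. The second Matn4 probe, well above background on 2 arrays, gave 0.62 for single KO mice minus WT and -2.15 for MDS/MPN minus MDS, where the probe used gave -0.07 and 0.09. Emcn (chromosome 3, 137341062 to 137431069) encodes endomucin, a sialomucin of endothelium and stem cells. Emcn read -2.78 on the KO array and 0.16 on the WT array at 3 months. On slide 2, Emcn read -3.70, -1.03 and -3.82 in MDS/MPN, 0.02 and -0.04 in MDS, -4.24 in the undetermined and -0.16 in the mixed KO sample, against -0.40 in WT. The mixed and MDS arrays lay just above WT at 9-12 months and the other 4 KO arrays of slide 2 below it. Emcn in MDS/MPN was well above background on 1 of 3 arrays and lay -2.84 ± 0.90 from MDS (SE, limma adjusted p = 0.991).

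Vwf (chromosome 6, 125552948 to 125686679) encodes von Willebrand factor and marks platelet-biased stem cells. Vwf read 1.52 on the KO array and 4.72 on the WT array at 3 months. On slide 2, Vwf read 3.43, 1.39 and 3.51 in MDS/MPN, 1.05 and 0.96 in MDS, 1.75 in the undetermined and -0.43 in the mixed KO sample, against 1.85 in WT. Unlike most of the 31 genes, Vwf was higher in MDS/MPN than in MDS on every array, by 1.77 ± 0.72 (SE, 95% interval 0.00 to 3.54, limma adjusted p = 0.991). In 2 of 3 MDS/MPN arrays it was above WT, and in the mixed KO array it was lowest. Robo4 (chromosome 9, 37401902 to 37414023) encodes a roundabout receptor that helps anchor stem cells in the marrow. Robo4 read 2.30 on the KO array and 3.47 on the WT array at 3 months. On slide 2, Robo4 read -0.40, 2.99 and 0.64 in MDS/MPN, 2.90 and 3.32 in MDS, 0.58 in the undetermined and 3.09 in the mixed KO sample, against 2.86 in WT. MDS/MPN replicate 2 lay with the MDS and WT arrays, and replicates 1 and 3 with the undetermined array far below.

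Selp (chromosome 1, 164115264 to 164150026) encodes P-selectin, an adhesion receptor of platelets and endothelium. Selp read 2.47 on the KO array and 2.87 on the WT array at 3 months. On slide 2, Selp read 0.92, 1.90 and 1.35 in MDS/MPN, 2.20 and 2.60 in MDS, 1.02 in the undetermined and 1.56 in the mixed KO sample, against 2.21 in WT. MDS replicate 1 was level with WT and MDS replicate 2 above it, and the 3 MDS/MPN arrays were below WT and MDS. Egfl7 (chromosome 2, 26581083 to 26592682) encodes a secreted vascular protein and hosts a stem cell microRNA. Egfl7 read 7.99 on the KO array and 7.49 on the WT array at 3 months. On slide 2, Egfl7 read 7.50, 6.87 and 7.27 in MDS/MPN, 7.62 and 7.56 in MDS, 7.36 in the undetermined and 8.15 in the mixed KO sample, against 7.52 in WT. Its 10 levels spanned 1.28, and the KO minus WT difference was 0.16 ± 0.36 (95% interval -0.64 to 0.95).

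Set against both WT arrays with the slide as a block, the 8 KO arrays were lower for 26 of 30 tested stem cell genes. Their median difference was -1.48, against 0.04 over 22371 features. The 4 above 0 were Cd48, Ly6a, Gata2 and Egfl7, of which Ly6a and Egfl7 turned below 0 with quantile normalization. No stem cell gene passed limma's test at an adjusted p of 0.05, where 0.0134% of features did, and 9 of the 30 had an unadjusted p under 0.05, as did 425 features above and 816 below 0. On 7 of the 30 genes every KO array was below both WT arrays (Meis1, Esam, Tek, Pdzk1ip1, Clec1a, Mmrn1 and Jam2), where 2.74% of features were. Of the 8 KO values, only 1 for Tek and 2 for Clec1a were well above background, so their order rests largely on dim signals. On none was every KO array above, where 3.18% of features were. Mecom, Fhl1, Ndn, Tek and Clec1a entered through the WT arrays, and Ndn, Tek and Clec1a are among the 9 with an unadjusted p under 0.05. Among the 18 genes well above background on all arrays, 14 were below 0 (median -1.13), against 35.4% of features (median 0.13). Slide 1 carried much of the size. With slide as a block, leaving out its KO or its WT array left slide 2 alone to compare KO with WT, with medians of -0.77 and -0.74. Leaving out the WT array of 9-12 months left only the unreplicated pair of slide 1, with a median of -2.86.

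**Figure D4:**
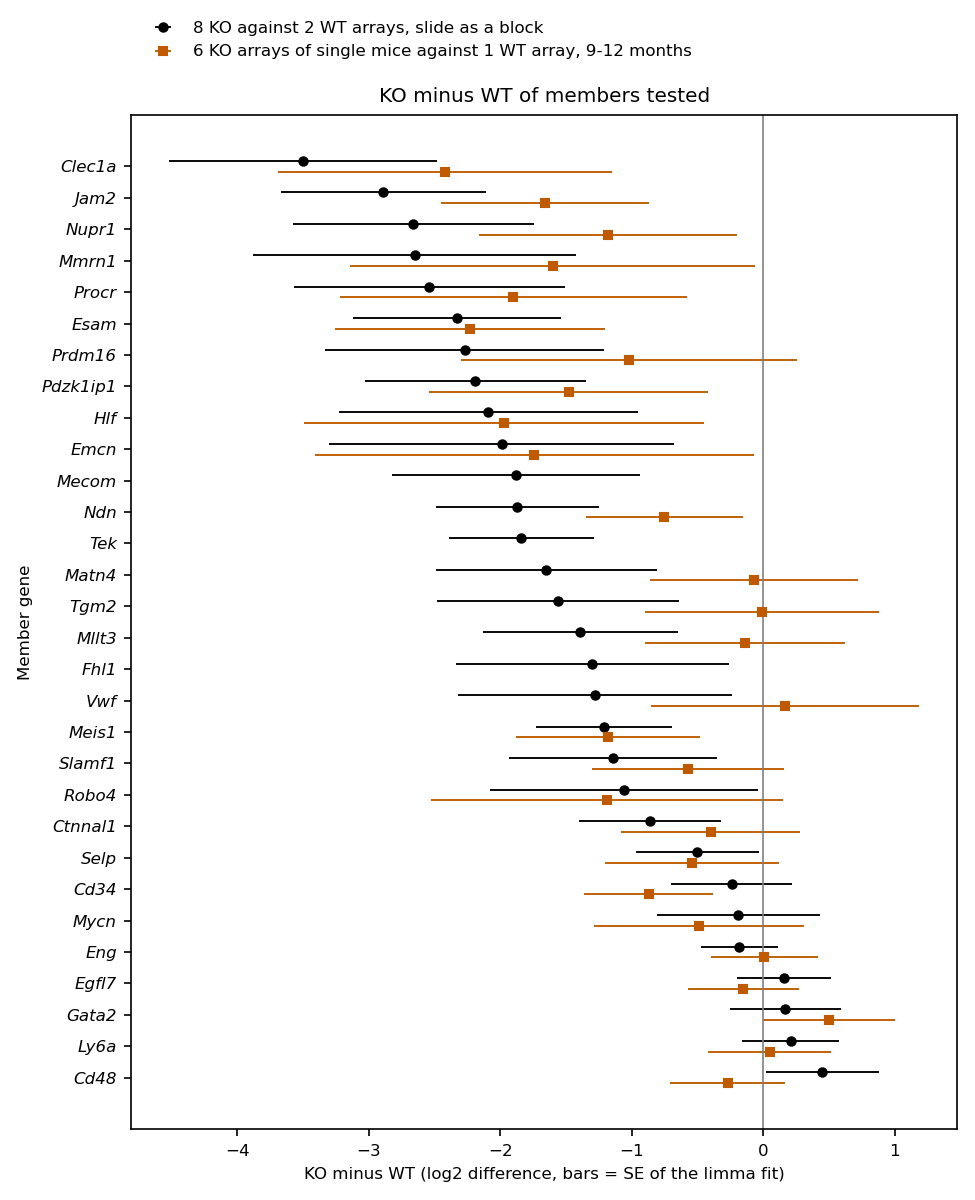
Points give KO minus WT log2 differences with their SE for the 30 genes tested in 8 KO against 2 WT arrays (black) and, where tested, in 6 KO arrays of single mice against WT at 9-12 months (orange). Of the black points 26 of 30, and of the orange ones 23 of 27, lie left of 0. The comparisons share 6 KO arrays and 1 WT array.

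The 6 single KO mice of 9-12 months were compared with the 1 WT array of their slide, which is assumed to vary as they do. Of 27 tested genes, 23 lay below 0, with a median of -0.75 against -0.01 over 19597 features. None passed limma's test, where 0.587% of features did, and 0 of the 27 had an unadjusted p under 0.05, where 278 features above and 637 below 0 did. All 6 KO arrays were below WT for 7 genes (Meis1, Esam, Cd34, Pdzk1ip1, Clec1a, Mmrn1 and Jam2), where 13.9% of features were, and above it for none, where 9.28% of features were. Clec1a entered through the WT array alone. Of the 18 genes well above background on all arrays, 14 lay below 0 (median -0.52), against 45.1% of such features (median 0.05). Under the time labels of the value table, which set the same mice against the WT array of slide 1, the median was -2.23 over 30 genes and 3 passed: Jam2 at -6.11, Nupr1 at -5.60 and Matn4 at -4.96 (limma adjusted p = 0.0196, 0.0488 and 0.0369). Slide and WT array then change together, and Jam2 and Matn4 were not well above background on some of the KO arrays.

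Within KO cells, stem cell genes were lower in MDS/MPN than in MDS for most members. In MDS/MPN, 21 of 28 tested stem cell genes were lower than in MDS, with a median of -1.07 against -0.02 over 20727 features. No gene passed limma's test, where 0% of features did, and 12 of the 28 had an unadjusted p under 0.05, as did 310 features above and 612 below 0. Among genes well above background on all 10 arrays, the lowest p were those of Hlf (-2.87 ± 0.54, SE, unadjusted p = 0.00208) and Procr (-2.53 ± 0.53, 0.00335), with limma adjusted p = 0.975 and 0.991. Clec1a, well above background on 0 of 3 MDS/MPN arrays, was at least 1.66-fold lower (limma adjusted p = 0.941). All 3 MDS/MPN arrays were below both MDS arrays for 17 of the 28 genes, where 12% of features were, and above both for Ctnnal1 and Vwf, where 7.75% were. Prdm16, Ndn, Clec1a, Jam2 and Emcn entered through the MDS arrays. All of these but Prdm16 are among the 12 with an unadjusted p under 0.05 and among the 17 without overlap. Among the 18 genes well above background on all arrays, 15 were lower (median -1.07), against 44.1% of features (median 0.06). The line on the slide differs between the groups as the disease does.

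**Figure D5:**
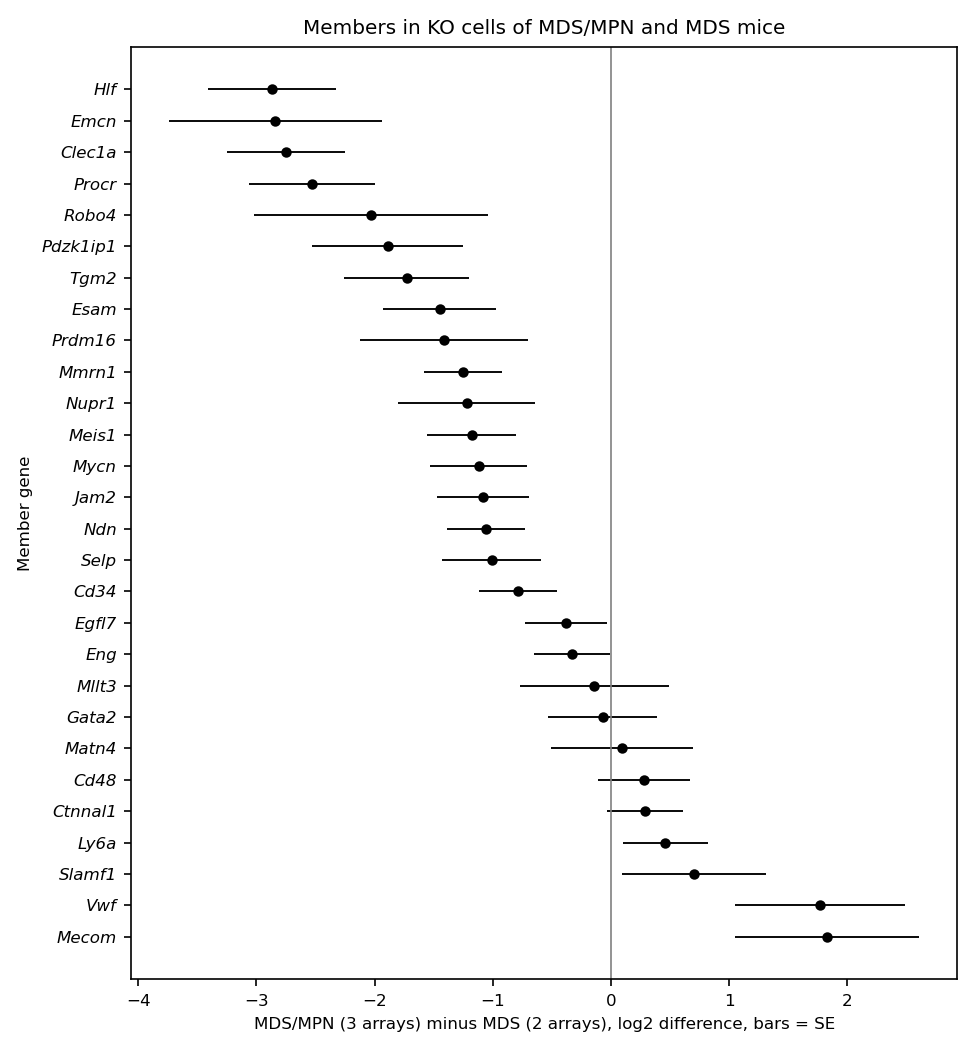
Points give the MDS/MPN (3 arrays) minus MDS (2 arrays) log2 difference with its SE for the 28 genes tested. Of these, 21 lie left of 0, and among genes well above background on all 10 arrays Hlf and Procr lie lowest and Vwf highest. The points of Clec1a, Emcn and Mecom rest on arrays not well above background and have no rank.

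Against the WT array of the same slide, stem cell genes of MDS mice lay on both sides of 0. Of 27 tested, 15 lay below 0 with a median of -0.06 (all features -0.03), and no gene passed, where 0% of features did, with 0 genes at an unadjusted p under 0.05 (285 features above and 479 below 0). In MDS/MPN, 22 of 28 lay below WT with a median of -0.94 (all features -0.05), and no gene passed, where 0% of features did. An unadjusted p under 0.05 was reached by 10 genes, among 409 features above and 884 below 0. Both tests have 1 WT array, which is assumed to vary as the MDS and MDS/MPN arrays do. In MDS/MPN against WT, Prdm16, Ndn, Clec1a, Jam2 and Emcn entered through the WT array alone. Of these, Ndn, Clec1a and Jam2 are among the 10 genes counted above. Among the 18 genes well above background on all arrays, 14 were below WT in MDS/MPN (median -0.77), against 48.8% of features (median 0.01). Over the 26 genes well above background on at least 5 arrays, the median difference from WT was -1.03, -0.65 and -0.85 in MDS/MPN replicates 1, 2 and 3, 0.02 and -0.18 in MDS replicates 1 and 2, -1.51 in the undetermined and -0.57 in the mixed array. The undetermined array was below WT for 23 of the 26. These comparisons share the WT array.

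Time, slide and disease cannot be told apart here, as the arrays of 3 months are those of slide 1 and are labelled as without disease. The contrast tested was the KO difference at 9-12 months minus that at 3 months. It was above 0 for 23 of 30 genes, with a median of 1.80 against -0.23 over 23307 features, a smaller fitted distance below WT at 9-12 months for most genes. Mecom, Fhl1 and Tek entered through the WT array at 3 months alone, and a high level on that array raises this difference. No gene passed limma's test, where 0% of features did, and 7 genes had an unadjusted p under 0.05, among 564 features above and 607 below 0. The KO group at 3 months and both WT groups hold 1 array each, so the errors rest on the spread of the 6 single KO mice alone. Among genes well above background on all 10 arrays, Tgm2 was highest at 3.85 ± 1.47 (SE, 95% interval 0.52 to 7.19, limma adjusted p = 0.833), followed by Nupr1 at 3.77 ± 1.61. With the value table's labels instead, the median was -1.25, so the direction rests on which labels are used. In the 18 genes well above background on all arrays, 7 lay below 0 (median 0.53), against 68.4% of features (median -0.26).

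Other gene lists were read on the same arrays, in all KO against both WT, where no gene of any list passed limma's test. Of 27 other stem cell enriched genes, 24 lay below 0 with a median of -0.70. They included Trpc6 at -2.27 ± 1.05, the receptor tyrosine kinase Tie1 (also an endothelial marker) at -2.05 ± 0.62 and Art4 at -1.97 ± 0.61 (SE, limma adjusted p = 0.903, 0.622 and 0.627). Of 15 other stem cell transcription factors, 10 lay below 0 with a median of -0.24. Hoxb5, a homeobox gene of long-term stem cells, was lowest at -2.70 ± 0.90, followed by Rora at -0.97 ± 0.81 and Erg at -0.94 ± 0.77 (SE, limma adjusted p = 0.663, 0.967 and 0.967).

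Most early myeloid genes and the division genes tested lay above 0. Early myeloid progenitor genes were above 0 for 10 of 12 with a median of 1.61, among them Ms4a3 at 2.79 ± 1.26, the granulocyte factor Cebpe at 2.72 ± 0.96 and the Fc receptor Fcgr3 at 2.34 ± 0.79 (SE, limma adjusted p = 0.896, 0.704 and 0.669). Their summed level, with 1 set at the 75th percentile signal, was 1060 to 4970 on the 8 KO arrays, against 502 on the WT array at 3 months and 1350 on that at 9-12 months. Progenitor and lymphoid priming genes were above 0 for 7 of 11 (median 0.25), with Ccr9 at 2.85 ± 1.14 and Ly6d at 2.59 ± 0.65. Division genes were above 0 for 20 of 20 (median 0.64), including Ccne1 at 2.08 ± 0.86, Plk1 at 1.32 ± 0.55 and Cenpe at 1.25 ± 0.96, and their summed level was 363 to 952 in KO, against 303 at 3 months and 495 at 9-12 months in WT. In MDS/MPN against MDS the early myeloid genes were above 0 for 11 of 12 (median 0.75) and division genes for 20 of 20 (median 0.66). Against the WT array of 9-12 months, division genes were below 0 for 16 of 20 in MDS (median -0.18). They were above 0 for 18 of 19 in MDS/MPN (median 0.39) and for 15 of 20 over the single KO mice (median 0.15).

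Markers of other cells that share these genes were read as well. Of 16 endothelial markers, 7 were tested, and 4 of these lay below 0 (median -0.01). Cdh5, Flt4, Sox17, Sox7, Lyve1 and Ptprb were well above background on no array. The summed endothelial level was 18.3 to 184 in KO, against 92.2 at 3 months and 56.5 at 9-12 months in WT. In the pair at 3 months, 3 of 7 endothelial markers counted were lower on the KO array and 4 higher (median 0.06). There Cldn5, well above background on 4 arrays, read -4.79 on the KO and 4.12 on the WT array, and Aqp1 read 4.8 and 2.72. Of 13 megakaryocyte and platelet markers tested, 8 lay below 0 (median -0.14). Their sum was 38.9 to 293 in KO, against 99.7 and 54.7 in WT at 3 and 9-12 months. In the pair at 3 months, 9 of 13 were lower on the KO array and 4 higher (median -0.42). There Ppbp, well above background on 4 arrays, read -2.97 on the KO and 2.29 on the WT array, and Pf4 read 5.84 and 5.08. Tubb1 was well above background on none.

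Erythroid markers were above 0 for 10 of 13 (median 2.01), with a sum of 85.0 to 603 in KO, against 153 and 90.8 in WT at 3 and 9-12 months. Mast cell and basophil markers were above 0 for 10 of 10 (median 2.59), with a sum of 13.4 to 123 in KO, against 5.28 and 15.0 in WT at 3 and 9-12 months. Lineage markers outside the gate were above 0 for 4 of 7 (median 0.05), with a sum of 58.1 to 92.7 in KO, against 86.7 and 79.0 in WT at 3 and 9-12 months. Immediate early genes, which respond to handling and stress, lay below 0 for 15 of 15 (median -1.46). Their summed level was 56.9 to 2360 in KO, against 2970 in WT at 3 months and 492 at 9-12 months. The part of these cell types, of division and of handling in the stem cell gene values was not tested.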

How the data were processed

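RNA of 8 KO and 2 WT samples was measured on 1-colour Agilent arrays, 1 array per sample. The deposited scanner files hold spot intensity from Agilent Feature Extraction 10.7.1.1, per the file headers, with background subtracted and spatial trends removed but no scaling between arrays. The submitters' processing notes name version 9.1. The deposited value table holds a ratio per probe that follows each array's scanner signal on the log2 scale (SD of the difference at most 0.0078 against the matched array). The columns of 4 arrays match the scanner file of the other time, which set the labels of the alternative described with the results.

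Processed intensity was divided by each array's 75th percentile and log2 taken. Control spots and outlier flags were dropped, and each gene was represented by its brightest probe. Probes were named through RefSeq accessions, 27656 of 55681 probes and 20972 genes. A feature was tested if well above background, by the scanner software, on at least 50% of the arrays of a group. Differences were fitted with limma 3.58.1 (R 4.3.3) over all such features, with Benjamini-Hochberg adjustment and a threshold of 0.05. Slide was a block in all KO against both WT, and the difference between times used both slides without that term. The fits were tested on simulated data. Pairs of single arrays had no test, and a difference counted from 2-fold. Where a group was dim on every array, the fold is a lower bound against the lowest signal well above background on that array.

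All 31 genes are named, those well above background on at least 5 arrays with every value. Of other lists, at most 3 genes are named, those with the largest difference between KO and WT. The members, lists, motifs and tests were chosen with earlier results of these data known. Alternatives changed scaling, probe choice, filter, variance prior, dim values, background correction, arrays and time labels. Normexp used median signals, since the files hold no mean column, and this and leaving out a WT array were chosen after seeing the data. Python 3.11.15 drew the figures. Promoters are from RefSeq on GRCm38.p6. The number of arrays limits the precision.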

Additional observations from a re-analysis of the deposited data

Results flagged for a closer look

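For 2 of the 26 stem cell genes examined this way, 1 of the 6 arrays of single KO mice stood far from the others, the undetermined array both times. For values of normal spread, the rule flags some array at either end in about 1 of 20 genes. So 2 of 26 is near that rate, and the share over all features was not taken. Ctnnal1 read -2.14 and Mmrn1 read -3.87 on the undetermined array, both not well above background. MDS and MDS/MPN arrays lay on opposite sides of the WT array of their slide for 6 of the 26 genes, each with MDS above and MDS/MPN below, where 2.6% of the 18461 features well above background on at least 5 arrays did the same and 4.13% did so in either direction. Some of these sides rest on small gaps. Hlf read 4.01 in MDS replicate 1 against 3.99 in WT, and Egfl7 read 7.50 in MDS/MPN replicate 1 against 7.52 in WT. Emcn was well above background on 1 of 3 MDS/MPN arrays. The MDS/MPN minus MDS difference was -2.87 for Hlf, -2.84 for Emcn, -1.73 for Tgm2, -1.12 for Mycn, -0.38 for Egfl7 and -0.33 for Eng. The limma adjusted p of these 6 differences was 0.975 for Hlf and 0.991 for the others, so none passed. Disease and the line of the slide cannot be told apart.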

How the results depend on the processing

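Alternatives were run for single KO mice against WT, all KO against both WT, MDS/MPN against MDS and the difference between times. MDS/MPN against WT had none. In those run, no stem cell gene was called except under the time labels of the value table. There 3 genes passed limma's test in single KO mice against WT, Jam2, Nupr1 and Matn4, and the WT array then lies on another slide. Under the same labels the KO difference at 9-12 months minus that at 3 months changed sign for Mllt3 (-2.34), Nupr1 (-3.30), Ndn (-1.23), Slamf1 (-5.17), Pdzk1ip1 (-2.63), Ctnnal1 (-2.61), Clec1a (-3.37), Mmrn1 (-3.14), Matn4 (-4.01) and Jam2 (-2.99), with the smallest limma adjusted p of a stem cell gene at 0.258. Emcn was 0.39 above WT in the MDS arrays alone. Changes of sign within 1 SE of 0 are not counted here.

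Leaving out 1 array gave 0 called stem cell genes each time. The median of the genes tested then lay between -0.92 and -0.57 for single KO mice against WT. It lay between -1.0 and -0.88 for MDS/MPN against MDS, and 1.54 and 1.94 for the difference between times. For all KO against both WT it lay between -1.59 and -1.41 where each slide kept both genotypes. Otherwise the fit compared KO with WT on a single slide, with -0.77 or -0.74 on slide 2 and -2.86 on slide 1. Without MDS/MPN replicate 2 the smallest adjusted p in MDS/MPN against MDS was 0.117, with 16 genes at an unadjusted p under 0.05, against 3 to 9 when another array was left out. The median between times was 0.53 over genes well above background on every array and 0.77 with normexp, and normexp gave -0.36 for single KO mice, -0.66 for all KO and -0.65 for MDS/MPN against MDS. Over all features, calls in single KO mice against WT were 115 and ranged from 0 to 247, so that count rests on the setting: it was 0 without MDS replicate 1 or MDS/MPN replicate 3 and 247 with quantile normalization. In all KO against both WT 3 features were called, against 154 without the KO array of slide 1 and 177 without its WT array. Quantile normalization moved array medians by -0.36 to 0.46.

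The value table as a source was not run apart, because its columns hold the scanner files' own values. No paired analysis was possible because the labels give no replicate numbers shared across groups. Mecom, Fhl1, Tek, Fgd5 and Clec1a were well above background on at most 4 of 10 arrays, which leaves the size of their differences unmeasured. The WT groups have 1 array at each time.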
